A study of Mus musculus with 18 samples.

Results

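The genes described here are 34 markers of endothelial cells, the cells that line blood vessels, together with the adhesion molecules through which those cells hold leukocytes. They were taken by symbol from the count table, and all 34 were found among its 25230 symbols. The table holds bulk RNA sequencing of 18 mouse heart libraries, with 3 biological replicates in each of 6 groups. Every animal was a male C57BL/6J mouse whose left anterior descending coronary artery had been tied to cause a myocardial infarction, and tissue was taken 3 days later. The groups are the atria, the infarcted left ventricle (LV) and the non-infarcted left ventricle, each from mice given the GLP-1 receptor agonist liraglutide or phosphate-buffered saline (PBS). All 6 groups therefore come from infarcted hearts, and sham-operated hearts were not analysed here. The sources used here do not give the age of the mice or the dose and schedule of liraglutide.

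Endothelial cells form a sheet whose junctions (Cdh5, Cldn5, Esam, Pecam1) hold it together, and they read growth signals through receptors such as Kdr and Flt1, which bind VEGF, and Tek and Tie1, which serve angiopoietin signalling. In the heart muscle most of these cells lie in capillaries, while the inner face of each chamber is lined by endocardium. When endothelium is activated by inflammatory signals it displays E-selectin (Sele) and P-selectin (Selp), which slow passing leukocytes, and Icam1 and Vcam1, which bind leukocyte integrins and arrest them. Selp is also held in platelets, Icam1 is also made by leukocytes, and Vcam1 is also made by some stromal cells. In a bulk sample, fewer cells of a type and less RNA per cell cannot be told apart.

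The promoter sequences below are shown for 3 members that were higher in atria than in non-infarcted LV in PBS (Sele, Selp, Icam1) and 3 that were lower there (Adgrl4, Adgrf5, Cldn5), so that the DNA before the start of genes with opposite regional differences can be read side by side. Each is the 250 bases before the RefSeq start of the gene in GRCm38.p6, written from 5′ to 3′ on the gene's own strand, which is the plus strand for all 6. Capitals mark the ETS core AGGAAG, or CTTCCT where it lies on the other strand; ETS factors, among them the member Erg, are regulators of many endothelial genes. The windows are Sele chr1:164047984-164048233, Selp chr1:164115014-164115263, Icam1 chr9:21015690-21015939, Adgrl4 chr3:151437632-151437881, Adgrf5 chr17:43360181-43360430 and Cldn5 chr16:18776597-18776846.
Sele: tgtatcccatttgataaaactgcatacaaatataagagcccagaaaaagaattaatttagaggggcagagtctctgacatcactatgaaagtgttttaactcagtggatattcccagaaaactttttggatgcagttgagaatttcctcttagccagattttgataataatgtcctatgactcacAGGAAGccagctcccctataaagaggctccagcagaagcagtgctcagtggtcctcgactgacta
Selp: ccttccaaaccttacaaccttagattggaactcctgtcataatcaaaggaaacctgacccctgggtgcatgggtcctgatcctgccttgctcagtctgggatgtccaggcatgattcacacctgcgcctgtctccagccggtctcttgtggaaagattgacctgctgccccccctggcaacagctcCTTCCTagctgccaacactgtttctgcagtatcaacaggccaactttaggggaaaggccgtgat
Icam1: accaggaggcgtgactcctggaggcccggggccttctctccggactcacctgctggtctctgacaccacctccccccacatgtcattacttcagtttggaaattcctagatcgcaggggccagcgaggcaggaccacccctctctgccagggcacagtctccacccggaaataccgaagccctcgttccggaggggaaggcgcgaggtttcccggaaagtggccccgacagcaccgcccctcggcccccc
Adgrl4: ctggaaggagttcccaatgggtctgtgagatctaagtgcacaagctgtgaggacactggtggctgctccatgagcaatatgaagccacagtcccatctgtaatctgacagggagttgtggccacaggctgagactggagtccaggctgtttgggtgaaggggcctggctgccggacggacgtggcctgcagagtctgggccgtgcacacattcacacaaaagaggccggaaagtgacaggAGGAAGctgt
Adgrf5: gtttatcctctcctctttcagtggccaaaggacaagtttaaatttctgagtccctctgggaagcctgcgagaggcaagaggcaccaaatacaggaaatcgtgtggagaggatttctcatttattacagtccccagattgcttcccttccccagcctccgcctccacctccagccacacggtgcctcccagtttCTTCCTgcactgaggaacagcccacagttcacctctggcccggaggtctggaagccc
Cldn5: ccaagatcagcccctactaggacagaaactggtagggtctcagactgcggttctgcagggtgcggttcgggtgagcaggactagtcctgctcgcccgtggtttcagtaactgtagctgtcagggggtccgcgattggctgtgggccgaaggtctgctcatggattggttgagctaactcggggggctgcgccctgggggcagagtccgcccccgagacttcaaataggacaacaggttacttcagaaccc
Of the 34 members, 18 had an entry in the RefSeq promoter table. The ETS core was found on either strand in 10 of these 18 promoters (55.6%), against 29.2% of 27025 promoters of the same length. Among the 6 shown, Sele, Selp, Adgrl4 and Adgrf5 hold 1 match each, and Icam1 and Cldn5 hold none in these windows. The kappaB consensus, a motif bound by NF-kappaB, was found in 2 of the 18 (11.1%), against 3.74% of all promoters. Those were Kdr, 74 bases upstream of the start, and Flt1, 92 bases upstream. Only the 10-base pattern GGGRNWYYCC, in standard base codes, was counted. Sites that depart from it, in the genes shown or in others, would have been missed. A match is a description of letters and was not tested as a binding site.

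Library totals ran from 4280459 to 21853482 counts, and values of single libraries are given as CPM, that is, counts scaled to a common library total. A count of 3 in a library corresponds to 0.137 to 0.701 CPM. The 34 members together took 0.358% to 0.777% of the counts of a library. The regional labels were checked against muscle genes: 6 atrial cardiomyocyte genes summed to 37573 to 52746 CPM in atria and to 194 to 569 CPM in ventricle. In the 6 infarcted libraries 8 general cardiomyocyte genes still summed to 51812 to 63862 CPM, against 74166 to 82808 CPM in non-infarcted LV. A pair of atrial libraries carried markers of other tissue. PBS replicate 2 had 793 CPM over 8 adipocyte genes, where the other 5 atrial libraries had 13.7 to 54.3 CPM. Liraglutide replicate 3 had 2465 CPM over 6 ventricular muscle genes, where PBS atria had 839 to 1000 CPM. The other liraglutide atria had 952 and 1409 CPM, the latter also above every PBS atrial library.

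The first comparison asks how the vessel genes differed between infarcted and non-infarcted left ventricle of the same treatment. All 34 members rose in infarcted LV under PBS, by a median log2 fold change of 1.08, while the median over all 12831 genes tested was -0.02. By edgeR's quasi-likelihood test with Benjamini-Hochberg adjustment, 25.7% of all genes were higher and 21.7% lower at an adjusted p under 0.05. In all 34 members the 3 infarcted libraries lay above the 3 non-infarcted libraries, which was so for 31.4% of all genes. Under PBS the calls of Fabp4 and Vwf were lost in some alternatives. With liraglutide the same 34 of 34 rose, with a median of 0.99 and a background of 27.3%, although the calls of 4 of them (Plvap, Ramp2, Sox18 and Fabp4) were lost in some alternatives. The smallest called change was that of Fabp4 and the largest that of Esm1, at 0.20 and 3.02 on the log2 scale under PBS.

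Among the 13 junction and surface genes, Pecam1 (CD31, an adhesion molecule between endothelial cells) stood at 240, 246 and 225 CPM in non-infarcted LV and at 411, 480 and 434 CPM in infarcted LV. Cdh5 (VE-cadherin, the adherens junction protein of endothelium) was at 235, 238 and 215 CPM against 532, 541 and 471 CPM. In both genes every infarcted library was clear of every non-infarcted library. The log2 fold changes were 0.84 ± 0.08 (SE, n = 3 libraries per group, edgeR adjusted p = 4.9e-07) for Pecam1 and 1.11 ± 0.08 for Cdh5 (edgeR adjusted p = 5.22e-08). Cldn5, the claudin of endothelial tight junctions, was at 15.2, 20.6 and 27.0 CPM against 84.6, 86.2 and 81.5 CPM. Its log2 fold change of 1.99 ± 0.21 was the largest of the 13, and those of Adgrl4 and Adgrf5, both adhesion G protein-coupled receptors, were the smallest at 0.39 and 0.48. The remaining members of this set (Esam, Icam2, Emcn, Clec14a, Ptprb, Robo4, Mmrn2 and Egfl7) lay between 0.81 and 1.22.

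All 8 receptors and ligands of vessel growth rose. Aplnr, the receptor for apelin, was at 7.76, 8.47 and 5.87 CPM in non-infarcted LV and at 30.4, 59.3 and 30.8 CPM in infarcted LV, with 1 infarcted library well above the other 2 and no overlap between the groups. Its log2 fold change was 2.41 ± 0.33 (edgeR adjusted p = 0.00214). Dll4, a Notch ligand of arterial and sprouting endothelium, followed at 1.34 ± 0.13. Kdr (VEGF receptor 2), Flt1 (VEGF receptor 1), Tek, Tie1 and the TGF-beta co-receptor Eng lay between 0.83 and 1.08, and Ramp2, the partner of the adrenomedullin receptor, was at 0.64. The 4 transcription factors rose as well, with Sox7 at 1.52, Sox18 at 0.80, Erg at 0.77 and Sox17 at 0.63. The role of Esm1, a secreted product of sprouting endothelium, among the largest changes rests on few reads: 10, 4 and 1 counts in non-infarcted LV against 26, 48 and 15 counts in infarcted LV. These counts gave a log2 fold change of 3.02 ± 0.41 (edgeR adjusted p = 2.56e-05).

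The 4 leukocyte adhesion molecules rose together in infarcted LV. Sele was at 9.34, 10.2 and 8.27 CPM in non-infarcted LV under PBS and at 44.1, 44.3 and 41.4 CPM in infarcted LV. Selp was at 9.46, 9.97 and 8.03 CPM against 66.3, 54.6 and 68.0 CPM. In both selectins the lowest infarcted library was several times the highest non-infarcted one, and the edgeR estimates were 4.50-fold higher for Sele (log2 2.17 ± 0.11, adjusted p = 2.94e-09) and 6.55-fold for Selp (log2 2.71 ± 0.12, adjusted p = 1.09e-09). Icam1 was at 29.6, 37.1 and 29.2 CPM against 88.5, 127 and 104 CPM, a 3.23-fold difference. Vcam1 was at 22.3, 21.3 and 23.5 CPM against 61.6, 70.3 and 74.8 CPM, a 2.96-fold difference. Over 7 platelet genes the summed level was 21.6 to 29.0 CPM in PBS non-infarcted LV and 35.0 to 38.8 CPM in PBS infarcted LV, and its part in the Selp difference was not tested.

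**Figure D1:**
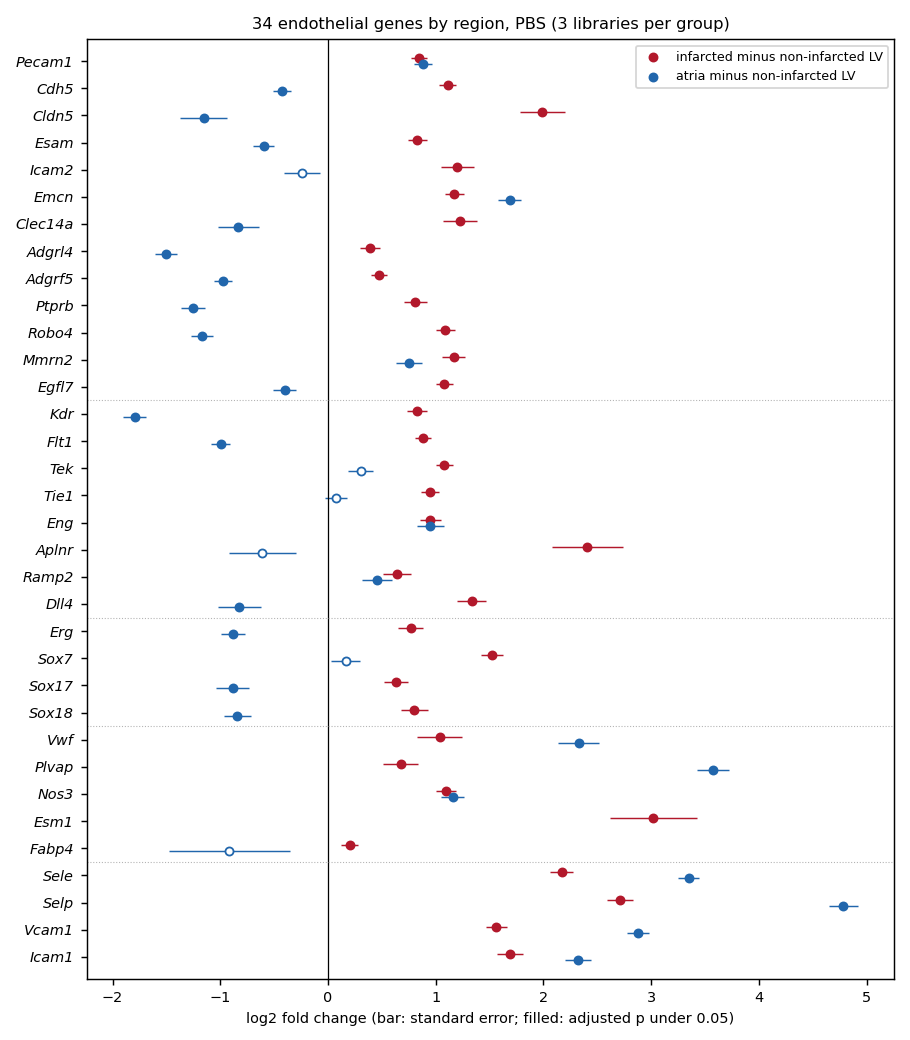
Log2 fold change of each of the 34 members (rows, grouped by role with dotted lines) in PBS libraries, for infarcted against non-infarcted LV (red) and atria against non-infarcted LV (blue); bars are standard errors, filled points have an adjusted p under 0.05, and Esm1 was not tested in the atrial comparison. All red points lie to the right of 0, from 0.20 to 3.02, while blue points lie on both sides, from -1.79 for Kdr to 4.78 for Selp.

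Some calls in the infarct comparison depended on the fit. Replicate numbers were taken to pair the PBS libraries of the infarcted and non-infarcted LV. With the number as a block Vwf, the clotting protein stored in endothelial granules, was no longer called (log2 fold change 1.07, edgeR adjusted p = 0.0846). The fit without a block gave 1.04 and 0.00884. Vwf was at 69.6, 117 and 68.0 CPM in non-infarcted LV and at 183, 165 and 191 CPM in infarcted LV. Fabp4, a fatty acid carrier of capillary endothelium and of adipocytes, was at 638, 651 and 614 CPM against 717, 839 and 721 CPM and had an edgeR adjusted p of 0.0428. It was not called without infarcted PBS replicate 2 (log2 0.14, adjusted p = 0.241), without non-infarcted PBS replicate 1 (0.0869) or 2 (0.108), by DESeq2 (0.0767), without the filter on low counts (0.0602) or in the fit over all 18 libraries (0.682). With liraglutide 4 members lost their call in some alternatives. Plvap, at 14.1, 12.3 and 11.2 CPM in infarcted LV against 10.2, 9.04 and 9.34 CPM, had an edgeR adjusted p of 0.0291. It was not called by DESeq2 (0.104), in the fit over all 18 libraries (0.0567), without infarcted liraglutide replicate 1 (0.134) or 2 (0.0699), or without non-infarcted liraglutide replicate 2 (0.0979) or 3 (0.0621). Ramp2, with an edgeR adjusted p of 0.034, was not called without the filter (0.121), without infarcted liraglutide replicate 2 (0.07), or without non-infarcted liraglutide replicate 1 (0.0903) or 2 (0.0823). Sox18 was lost without infarcted liraglutide replicate 3 (edgeR adjusted p = 0.0634) and Fabp4 in the fit over all 18 libraries (0.413).

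Other cell types moved with the infarct too. Over 9 mural cell genes the sum was 2451 to 2597 CPM in infarcted LV under PBS and 1324 to 1506 CPM in non-infarcted LV. For 8 fibroblast genes it was 1715 to 2025 against 692 to 871 CPM, and for 8 macrophage genes 462 to 577 against 262 to 315 CPM. Their part in the rise of the endothelial genes, like that of the lower cardiomyocyte sum, was not tested.

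Further endothelial genes that are not among the 34 showed the same direction in most lists. Of all genes tested under PBS, 25.7% were higher in infarcted LV and 21.7% lower. In infarcted LV under PBS, 14 of 14 genes of tip cells and sprouting vessels rose, among them Nid2 (1.39), Plxnd1 (1.22), Lama4 (0.98) and Col4a1 (0.94 on the log2 scale), and the list's median was 1.17. The part of mural cells and fibroblasts in the values of this list was not tested. All 7 flow-responsive genes rose with a median of 1.63, with Thbd (thrombomodulin) at 1.80, Edn1 (endothelin-1) at 2.14, Klf2 at 1.63 and Procr (the protein C receptor) at 2.45. In the arterial list 11 of 12 rose, including Notch1 (1.11) and Hey1 (1.60), and in the list of other pan-endothelial genes 15 of 16 rose. The 12 capillary genes had 9 that rose and 1 that fell, with a median of 0.55. Endocardial genes were mixed: 1 of 6 tested rose, 2 fell, and their median was 0.01. The 2 that fell were Gata4, by 0.41, and Npr3, by 0.39 on the log2 scale. Of 8 tested partners through which leukocytes bind the adhesion molecules, 7 rose, among them Cd44 (0.72), Itgb1 (0.41), Selplg (the P-selectin ligand, 1.29) and Itgb2 (0.98).

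The second comparison sets atria against non-infarcted LV. Under PBS 33 members were tested, since Esm1 did not pass the filter on low counts. Of these, 12 were higher in atria, where 26.3% of all 13250 tested genes were higher, and 15 were lower, where 25.6% of all genes were lower. The median log2 fold change of the members was -0.40, against 0.01 over all genes. The 6 others tested (Icam2, Tek, Tie1, Aplnr, Sox7 and Fabp4) did not pass. When libraries were scaled by their totals alone, the median of all genes shifted to 0.13 and 62.3% of the called genes were higher, against 50.7% with TMM scaling, while the members stood at 13 higher and 15 lower. Left to 5 libraries, with the adipocyte-marked PBS replicate 2 out, the fit had 13 higher and 16 lower.

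The largest positive differences were in adhesion and vessel-type genes. Selp stood at 255, 330.4 and 245 CPM in PBS atria, against 8.03 to 9.97 CPM in non-infarcted LV, and was 27.6-fold higher (log2 4.78 ± 0.13, edgeR adjusted p = 3.32e-09). Sele was at 99.9, 108 and 101 CPM in atria and 10.2-fold higher (log2 3.35 ± 0.10), Vcam1 at 186, 183 and 168 CPM and 7.34-fold higher, and Icam1 at 158, 204 and 159 CPM and 4.99-fold higher. None of the 4 overlapped between the regions, which was so for 37% of all genes in the higher and 23.3% in the lower direction, and the gap was widest for Selp. Plvap, the protein of the diaphragms in endothelial pores, was at 126, 109 and 107 CPM in atria against 6.47 to 11.01 CPM, or 11.9-fold higher (log2 3.57 ± 0.15, edgeR adjusted p = 2.23e-08). Vwf was at 494, 458 and 431 CPM and 5.01-fold higher (edgeR adjusted p = 1.56e-05). The other members called higher were Emcn (1.68), Nos3 (the endothelial nitric oxide synthase, 1.16), Eng (0.95), Pecam1 (0.89), Mmrn2 (0.75) and Ramp2 (0.45 on the log2 scale). Ramp2 was not called without atria PBS replicate 1 (adjusted p = 0.0596) or without non-infarcted PBS replicate 1 (0.0822) or 3 (0.059).

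**Figure D2:**
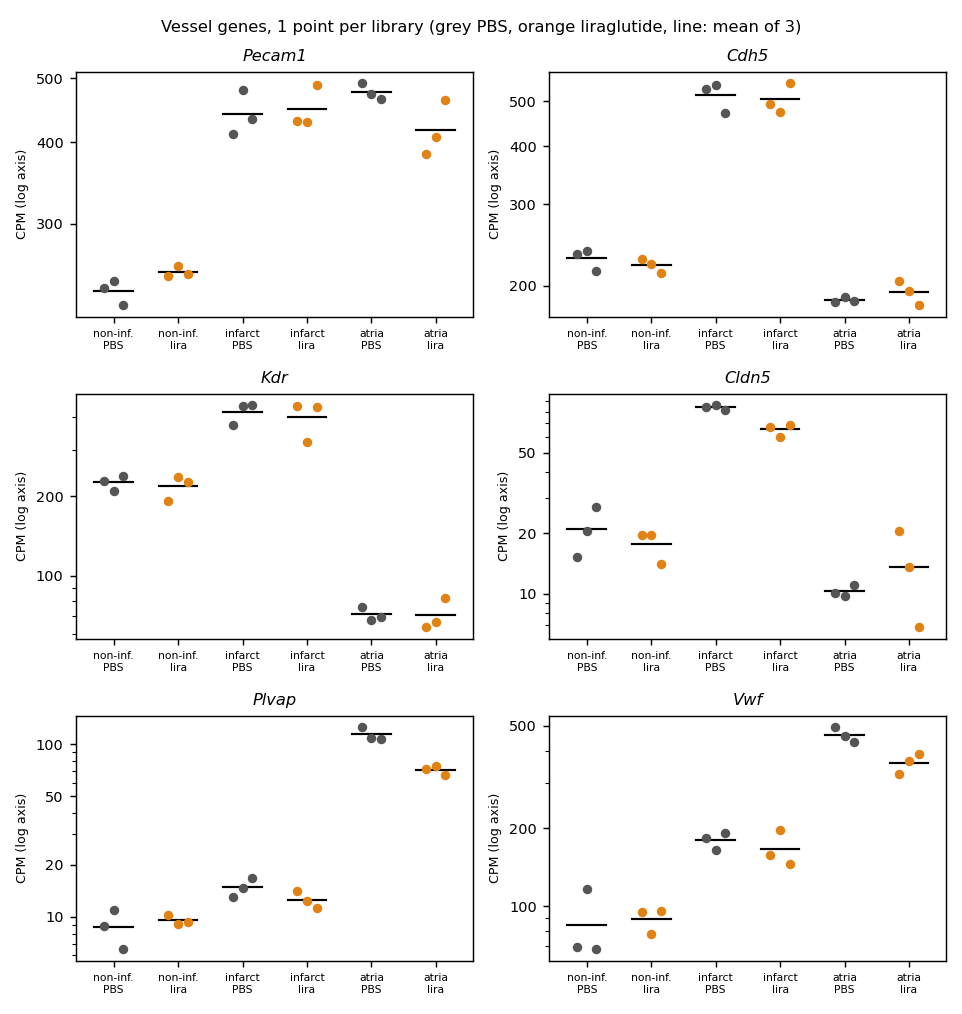
CPM of Pecam1, Cdh5, Kdr, Cldn5, Plvap and Vwf on log axes, with 1 point per library (grey PBS, orange liraglutide) and a line at the mean of 3, for non-infarcted LV, infarcted LV and atria. Kdr is lowest in atria (63.6 to 82.3 CPM) and highest in the infarct, while Plvap is highest in atria (66.3 to 126 CPM) and below 17 CPM in every ventricular library.

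The members that fell in atria were 9 of the 13 junction and surface genes, 3 of the 8 receptors and ligands of vessel growth (Kdr, Flt1 and Dll4) and 3 of the 4 transcription factors. Kdr was at 76.0, 67.9 and 69.9 CPM in PBS atria and at 229, 209 and 239 CPM in non-infarcted LV, which is 3.46-fold lower (log2 -1.79 ± 0.11, edgeR adjusted p = 2.81e-07). Adgrl4 was at 47.2, 57.3 and 54.4 CPM against 140.1, 135 and 136 CPM (2.83-fold lower), and Ptprb, the endothelial receptor tyrosine phosphatase, at 104, 107 and 98.5 CPM against 194, 232 and 247 CPM (2.38-fold lower). In these 3 genes the highest atrial library was far below the lowest ventricular one. Robo4, a guidance receptor of endothelium, was at 43.2, 40.8 and 38.0 CPM against 75.7, 91.2 and 85.7 CPM, Cldn5 at 10.1, 9.77 and 11.02 CPM against 15.2, 20.6 and 27.0 CPM, and Flt1 at 156, 165 and 154 CPM against 281, 289 and 296 CPM. The groups did not overlap in these 3 either, and they were 2.25-fold, 2.22-fold and 1.99-fold lower. Of the 4 transcription factors, Sox17 (-0.89), Erg (-0.88) and Sox18 (-0.84) fell, and Sox7 was at 0.16 ± 0.13 (edgeR adjusted p = 0.327). The remaining 6 called lower were Adgrf5, Clec14a, Dll4, Esam, Cdh5 and Egfl7, from -0.98 for Adgrf5 to -0.40 for Egfl7. Pecam1 and Cdh5, both junction proteins, thus differed in opposite directions between atria and non-infarcted LV, at 0.89 ± 0.08 and -0.42 ± 0.08. The part of leukocytes and platelets in the Pecam1 difference was not tested.

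Calls near the threshold moved with the settings. Tek was at 82.5, 65.4 and 65.6 CPM in PBS atria and 57.5, 55.5 and 45.8 CPM in non-infarcted LV, with an edgeR adjusted p of 0.0508. Replicate numbers were taken to pair these libraries as well. With the number as a block the edgeR adjusted p of Tek was 0.0277, and without atria PBS replicate 2 it was 0.0227. Icam2 was called lower without non-infarcted PBS replicate 1 (log2 -0.44, adjusted p = 0.0216) and Aplnr without atria PBS replicate 1 (adjusted p = 0.0178), by edgeR. Fabp4 was at 192, 698 and 223 CPM in PBS atria, the value of 698 CPM being that of replicate 2, which also held Adipoq at 79.2 CPM and Ucp1 at 88.8 CPM, both markers of adipocytes. Against 614 to 651 CPM in non-infarcted LV the log2 fold change was -0.91 ± 0.56 (edgeR adjusted p = 0.24), and without that library it was -1.71 (adjusted p = 3.49e-07). With liraglutide, where Fabp4 was at 203, 210.0 and 247 CPM in atria, the log2 fold change was -1.46 ± 0.09 (edgeR adjusted p = 2.8e-06).

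In liraglutide-treated mice 11 members were higher in atria than in non-infarcted LV and 13 were lower, against 24.6% and 22.9% of all genes. Of the 12 called higher under PBS, 11 (91.7%) were called with liraglutide, and those were all of the 11 called there (100%). Of the 15 called lower under PBS, 12 (80%) were called with liraglutide, or 92.3% of the 13 there. Ramp2, Cdh5, Cldn5 and Egfl7 were called under PBS and not with liraglutide, and Fabp4 the reverse. With liraglutide, Esam (edgeR adjusted p = 0.0262) and Dll4 (0.031) were near the threshold, and lost their calls with single libraries left out. For Esam these were atria liraglutide replicate 2 and non-infarcted liraglutide replicates 1 and 3 (adjusted p of 0.068, 0.0708 and 0.0991), and for Dll4 atria liraglutide replicate 1 and non-infarcted liraglutide replicates 2 and 3 (0.0539, 0.0783 and 0.121). Ramp2 was called without atria liraglutide replicate 3 (0.0204) or non-infarcted liraglutide replicate 3 (0.0332). None of these regional differences was itself shown to change with treatment, as the interaction tests given further on called no member.

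Genes of vessel subtypes outside the 34 differed in direction between lists under PBS. Of all genes tested in this comparison, 26.3% were higher in atria and 25.6% lower. The counts of the arterial list were near these shares in both directions, and those of the tip cell list did not stand clearly above them. All 12 capillary genes fell in atria, with a median of -1.78, among them Timp4 (-2.50), Gpihbp1 (the capillary anchor of lipoprotein lipase, -1.51), Kcna5 (-1.44) and Slc28a2 (-1.82). All 5 venous genes rose with a median of 0.79, among them Ephb4 (0.79), Nr2f2 (1.24) and Ackr1 (2.93). The part of atrial muscle and stromal cells in the venous values was not tested. Of 6 endocardial genes tested, 3 rose, namely Npr3 (2.77), Cytl1 (2.31) and Cgnl1 (1.10), and none fell. The arterial list was divided, with 3 higher, led by Gja5 (3.82) and Bmx (3.07), and 3 lower, led by Sema3g (-1.22); Gja5 is also the connexin of atrial muscle. Of 14 tip cell genes 2 rose and 4 fell, the latter led by Apln (apelin, -1.88). Among other pan-endothelial genes 2 of 16 rose and 9 fell, led by Tmem204 (-1.83) and Ushbp1 (-1.71). Of 10 leukocyte partners of the adhesion molecules 7 rose and 1 fell, with Cd44 at 3.08, Itgal at 3.38, Selplg at 2.72 and Itgax at 2.36.

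Leukocyte and surface markers differed between these regions as well. Over 8 neutrophil genes the sum was 360.2 to 1005 CPM in PBS atria and 62.6 to 98.7 CPM in PBS non-infarcted LV, and over 8 macrophage genes 397 to 667 against 262 to 315 CPM. Over 7 epicardial and mesothelial genes it was 221 to 335 against 9.83 to 12.4 CPM, and over 9 mural genes 459 to 504 against 1324 to 1506 CPM. The part of these cell types in the atrial differences was not tested. The platelet sum was 44.8 to 58.3 CPM in PBS atria against 21.6 to 29.0 CPM, and its part in the Selp difference was not tested.

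Set directly against infarcted LV under PBS, atria had 7 members higher, where 26.2% of all 13249 genes were higher, and 22 lower, where 26.1% were lower. The 7 were Plvap (7.66-fold), Selp (4.31-fold), Vcam1 (log2 1.35), Vwf (1.33), Sele (1.22), Icam1 (0.67) and Emcn (0.56). The largest differences in the other direction were in Esm1, with 1, 4 and 0 counts in atria against 26, 48 and 15 in infarcted LV (log2 -4.68 ± 0.50), Cldn5 (8.46-fold lower), Aplnr (7.96-fold lower), Kdr (5.97-fold lower), Robo4 (4.65-fold lower) and Dll4 (4.30-fold lower). Pecam1 (0.08 ± 0.09), Eng (0.04 ± 0.11), Nos3 (0.10 ± 0.10), Ramp2 (-0.13 ± 0.13) and Fabp4 (-1.08 ± 0.57) were not called. Mmrn2 was called lower (-0.37 ± 0.10) but not without atria PBS replicate 3 (edgeR adjusted p = 0.0562) or infarcted PBS replicate 2 (0.0714). Without atria PBS replicate 2, Fabp4 was called lower (log2 -1.87, edgeR adjusted p = 2.46e-08). The order of the adhesion molecules was therefore atria, infarcted LV and non-infarcted LV, each step past the threshold for all 4 under PBS. For Kdr, Cldn5, Flt1, Robo4, Adgrl4 and Ptprb the order was infarcted LV, non-infarcted LV and atria, again with each step called. Pecam1, Eng and Nos3 were higher in both infarcted LV and atria than in non-infarcted LV, and the upper pair did not differ beyond their spread.

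With liraglutide the direct comparison of atria with infarcted LV gave 7 members higher and 23 lower, against 22.1% and 21.2% of all genes. The 7 were those called under PBS, and 22 of the 23 (95.7%) were those called lower under PBS, with Fabp4 added. Emcn, Sele and Icam1 were close to the threshold there: 4 members remained higher under scaling by library totals alone, without infarcted liraglutide replicate 1 or without replicate 2. Sele also missed it without the filter (adjusted p = 0.106), without atria liraglutide replicate 1 (0.0729) and without replicate 3 (0.0629), and Emcn without atria liraglutide replicate 2 (0.0892) and without infarcted liraglutide replicate 3 (0.0559), by edgeR.

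**Figure D3:**
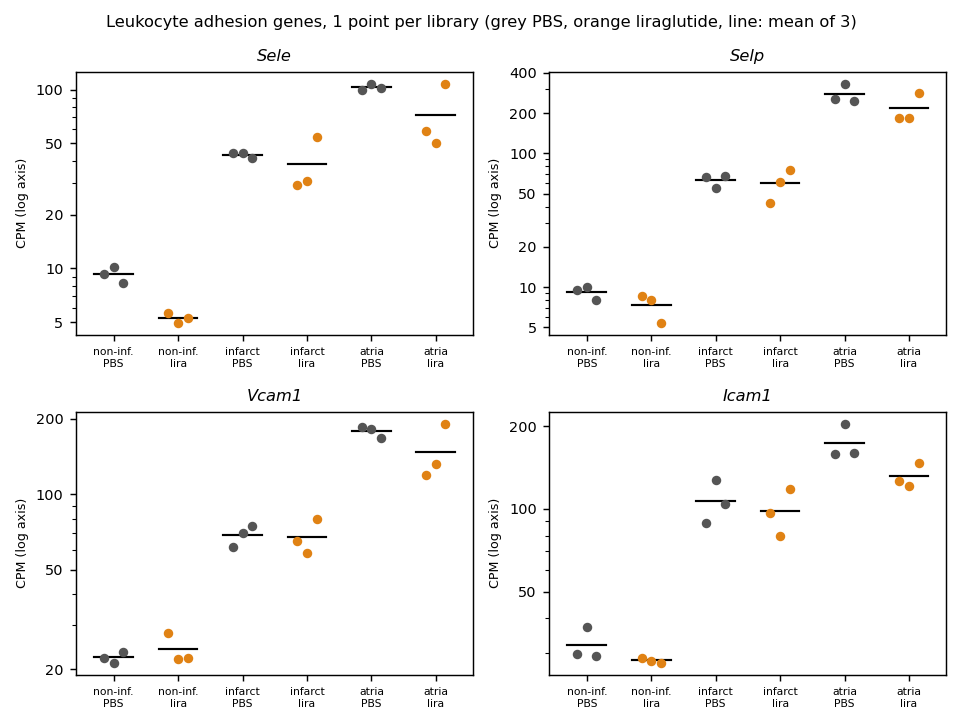
CPM of Sele, Selp, Vcam1 and Icam1 on log axes, with 1 point per library (grey PBS, orange liraglutide) and a line at the mean of 3. Each gene is lowest in non-infarcted LV, higher in the infarct and highest in atria under PBS, and in liraglutide atria 1 library (Sele 107 CPM, Selp 282 CPM) lies above the other 2 (Sele 50.1 and 58.5 CPM).

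The adhesion molecules were also expressed relative to other endothelial genes: each was divided in every library by the summed CPM of 6 general endothelial genes (Pecam1, Cdh5, Tie1, Esam, Egfl7 and Clec14a). That sum was 802 to 894 CPM in non-infarcted LV, 1546 to 1878 CPM in infarcted LV and 929 to 1045 CPM in atria. Its 6 genes did not move together between atria and non-infarcted LV under PBS. Pecam1 was called higher in atria, Cdh5, Esam, Egfl7 and Clec14a lower, and Tie1 was not called. The make-up of the sum therefore differed between these regions, which limits the ratio as a common reference. Under PBS, Sele was 1.14%, 1.14% and 1.03% of the sum in non-infarcted LV, 2.64%, 2.45% and 2.56% in infarcted LV and 9.56%, 10.8% and 10.3% in atria. Selp went from 1.16%, 1.11% and 1.00% to 3.98%, 3.02% and 4.20% and to 24.4%, 33.3% and 24.8%. For both selectins the 3 regions did not overlap in this ratio.

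The ratio to the 6-gene sum was 2.31-fold higher in infarcted than in non-infarcted LV for Sele, 3.39-fold for Selp, 1.64-fold for Icam1 and 1.52-fold for Vcam1. In atria the ratios were 9.26-fold, 25.0-fold, 4.51-fold and 6.65-fold higher than in non-infarcted LV, in the same order. Each of these 8 had an exact two-sided permutation p of 0.1, which is the smallest that 3 against 3 libraries can give, and 42 such differences were computed, so none could pass a threshold of 0.05. Cldn5 was 2.04-fold higher per sum in the infarct and 0.419 times as high in atria. Plvap was 0.851 times as high in the infarct (exact permutation p = 0.3) and 11.04-fold higher in atria. Kdr stood at 0.913 (exact permutation p = 0.4) and Vwf at 1.08 (exact permutation p = 0.8) in the infarct, where their groups overlapped. In atria they stood at 0.262 and 4.66. Fabp4 per sum was 0.589 times as high in the infarct, though its own level was called higher there.

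**Figure D4:**
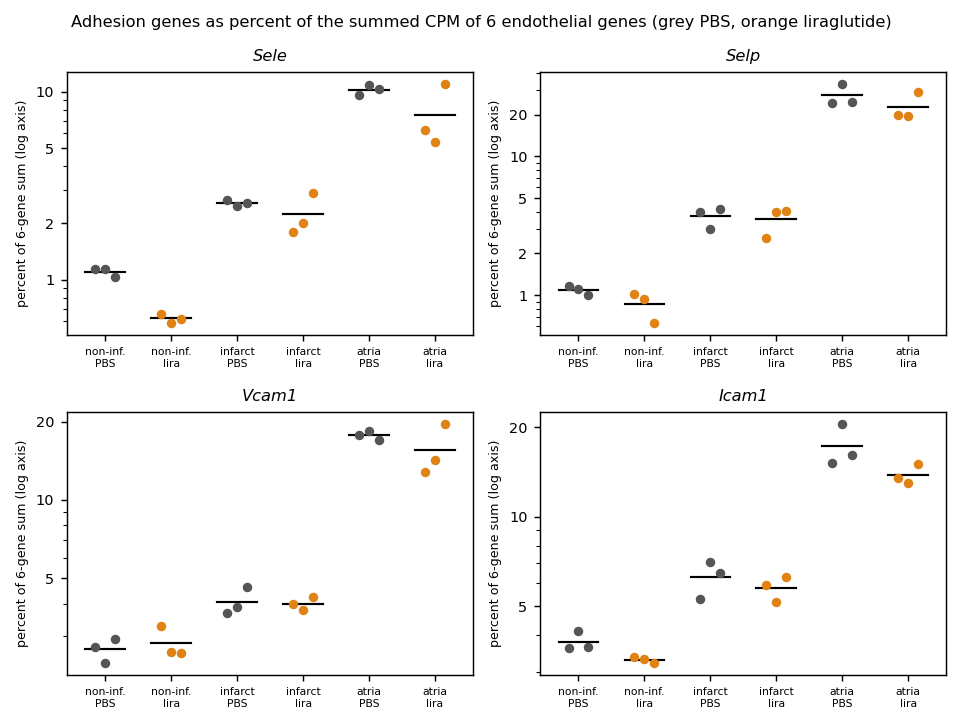
Sele, Selp, Vcam1 and Icam1 as a percent of the summed CPM of 6 endothelial genes in the same library, on log axes, with 1 point per library (grey PBS, orange liraglutide) and a line at the mean of 3. Under PBS the Sele ratio is 1.03% to 1.14% in non-infarcted LV, 2.45% to 2.64% in infarcted LV and 9.56% to 10.8% in atria.

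The third comparison, liraglutide against PBS within each region, is the one the series was made for. In none of the 3 regions was a member called by edgeR at an adjusted p under 0.05. In atria the count was 0 of 33, with 1 of 13530 genes called in all (0.00739%), in infarcted LV 0 of 34 with 0% of 12988 genes, and in non-infarcted LV 0 of 33 with 0% of 12919 genes. At an unadjusted p under 0.05 the members numbered 6, 3 and 2, against 6.87%, 5.24% and 4.34% of all genes. DESeq2 called 1 member in atria, 0 in infarcted LV and 0 in non-infarcted LV. The median log2 fold changes of the members were -0.02, -0.07 and -0.05, and no member differed by more than 2-fold in any region. Standard errors ran from 0.07 to 0.49 with medians of 0.13, 0.10 and 0.10. Differences several times the median standard error were not called either. The largest in non-infarcted LV was that of Sele, a drop of 0.83 on the log2 scale (edgeR adjusted p = 0.445). With 3 libraries per group, the lack of calls therefore does not exclude differences of that size. No gene of the other endothelial lists was called in any region either.

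Plvap had the smallest p of the members in atria. It was at 72.1, 74.4 and 66.3 CPM with liraglutide and at 126, 109 and 107 CPM with PBS, and the groups did not overlap. The log2 fold change was -0.58 ± 0.13 (edgeR adjusted p = 0.384). DESeq2 gave an adjusted p of 0.0242 in a run that called 118 genes (0.838%), and the edgeR fit over all 18 libraries gave 0.0389 with 94 genes called (0.675%). Over its 14 alternatives the adjusted p ran from 0.0242 to 0.933. Next by p were Nos3 (-0.39 ± 0.14), Erg (0.32 ± 0.12) and Icam1 (-0.31 ± 0.11), with edgeR adjusted p of 0.6, 0.623 and 0.625. Nos3 was at 116, 113 and 99.3 CPM with liraglutide and at 165, 147 and 153 CPM with PBS, and these did not overlap either. In all, 8 of 33 members had every liraglutide atrial library below every PBS library and 1 had it above, against 12% and 2.94% of all genes in CPM of library totals. Scaling by totals alone put the median of all genes in this comparison at -0.10, against 0.00 with TMM.

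Sele was the member with the smallest p in non-infarcted LV. It was at 5.61, 4.97 and 5.25 CPM with liraglutide and at 9.34, 10.2 and 8.27 CPM with PBS, without overlap. The log2 fold change was -0.83 ± 0.15 (edgeR adjusted p = 0.445). Without the filter on low counts the adjusted p was 0.039 with 5 genes called in all (0.0273%), and over 13 alternatives it ran from 0.039 to 1. In infarcted LV Sele was at 29.3, 30.8 and 54.4 CPM against 44.1, 44.3 and 41.4 CPM, which overlapped (-0.19 ± 0.21). In atria it was at 58.5, 50.1 and 107 CPM against 99.9, 108 and 101 CPM, the high liraglutide value being that of replicate 3. Sele was at 4.97 to 54.4 CPM in the ventricular libraries. Replicate 3 of the liraglutide atria also carried ventricular markers, and their part in its Sele value was not tested. The atrial log2 fold change was -0.44 ± 0.21 (edgeR adjusted p = 0.766), without that library -0.76 (adjusted p = 0.0226, with 105 genes called, 0.768%), and without both atrial libraries that held other tissue -0.75 (adjusted p = 0.0415, with 80 genes called, 0.597%). Over 14 alternatives the atrial adjusted p of Sele ran from 0.0226 to 1.00.

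The other 3 adhesion molecules were not called in any region under any setting. In atria Selp was at 185, 182 and 282 CPM with liraglutide (-0.27 ± 0.15), Vcam1 at 119, 132 and 191 CPM (-0.19 ± 0.13) and Icam1 at 126, 121 and 146 CPM. The neutrophil sum was 180 to 509 CPM in liraglutide atria and 360.2 to 1005 CPM in PBS atria, and its part in these values was not tested. In non-infarcted LV Selp was at -0.34 ± 0.17, Icam1 at -0.20 ± 0.10 and Vcam1 at 0.08 ± 0.12. In infarcted LV the 3 estimates lay between -0.12 and -0.01.

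In infarcted LV the smallest p belonged to Cldn5, at 67.3, 59.9 and 68.7 CPM with liraglutide and 84.6, 86.2 and 81.5 CPM with PBS, without overlap. Its log2 fold change was -0.36 ± 0.08 (edgeR adjusted p = 0.403), and over 13 alternatives the adjusted p ran from 0.0631 to 1. Sox18 was at 37.4, 38.5 and 46.0 CPM against 47.5, 64.3 and 50.7 CPM, again without overlap (-0.42 ± 0.11, edgeR adjusted p = 0.558). Without the filter its adjusted p was 0.0398, in a fit that called 35 genes (0.193%), within a range from 0.0398 to 1. Sox7 (-0.21 ± 0.10) and Adgrf5 (0.20 ± 0.10) came next. Pecam1 and Cdh5 differed between treatments by at most 0.16 on the log2 scale in any region, with standard errors of 0.07 to 0.12.

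**Figure D5:**
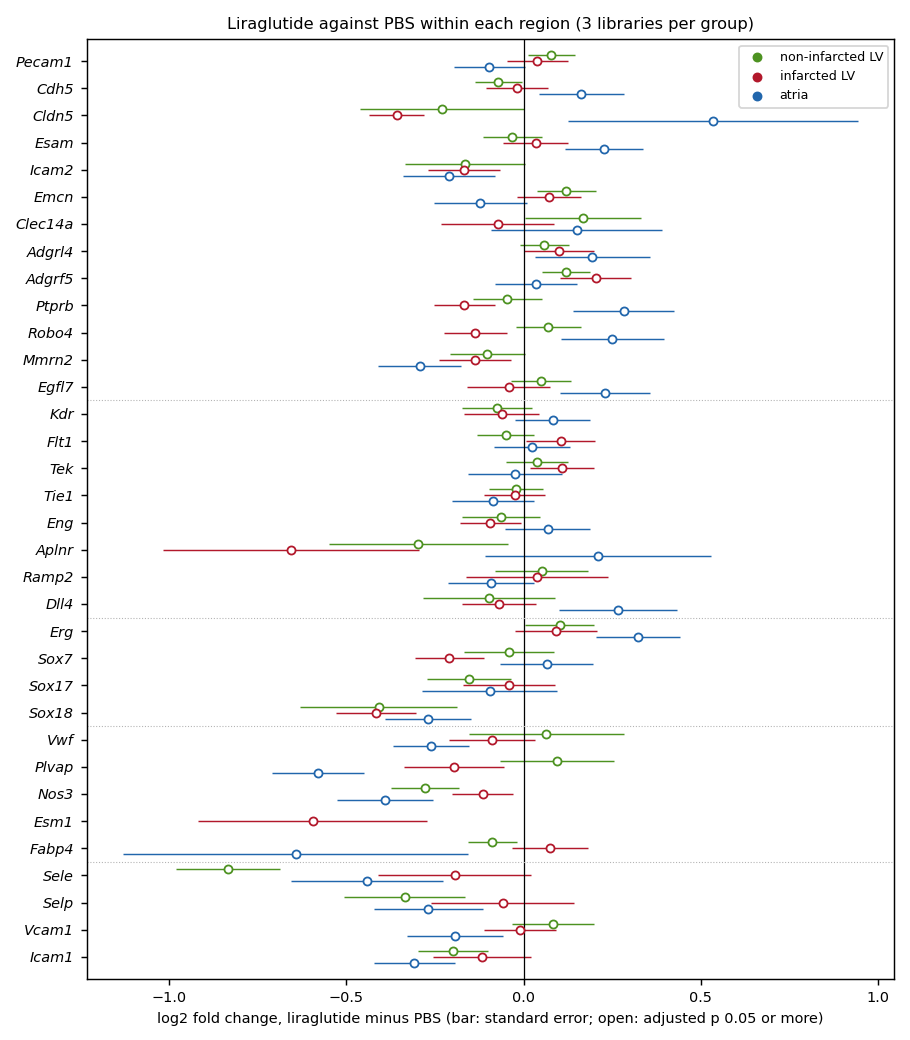
Log2 fold change of liraglutide against PBS for each member in non-infarcted LV (green), infarcted LV (red) and atria (blue), with standard errors; all points are open because none had an adjusted p under 0.05, and Esm1 was tested only in infarcted LV. The values furthest from 0 are Sele in non-infarcted LV (-0.83) and Aplnr in infarcted LV (-0.66).

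Whether the treatment difference varied between regions was tested with interaction terms over all 18 libraries. No member was called in any of the 3 contrasts between regions, and neither was any other of the 13920 genes (0%). At an unadjusted p under 0.05 stood 1.25% of all genes for infarcted against non-infarcted LV, 5.39% for atria against non-infarcted LV and 6.49% for atria against infarcted LV. The smallest adjusted p of a member was that of Plvap for atria against non-infarcted LV, with a difference in log2 fold change of -0.66 and an edgeR adjusted p of 0.505. Without atria liraglutide replicate 3, Cldn5 was called for atria against infarcted LV (1.29, adjusted p = 0.0459), and that library had the lowest Cldn5 value in liraglutide atria, at 6.82 CPM against 20.6 and 13.5 CPM.

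Levels of different genes were compared only as CPM per kb of exon, with all annotated exons of a gene merged. For Fabp4 that length was 4489 bases, the same as the span of the whole gene, so its values per kb may be too low. The place of Fabp4 in the orders below rests on that length. In non-infarcted LV under PBS the order was led by Fabp4 (141), Adgrf5 (60.2), Cdh5 (54.6) and Eng (51.2 CPM per kb), and in infarcted LV by Fabp4 (169), Cdh5 (122), Eng (103) and Adgrf5 (87.1). In PBS atria Eng came first at 108, followed by Fabp4 (82.7, raised by replicate 2), Pecam1 (76.6) and Selp (62.7). Selp thus stood among the first 4 members in PBS atria. In PBS non-infarcted LV it was at 2.07, above only Aplnr and Esm1. In non-infarcted LV of liraglutide-treated mice it was the last but Esm1, at 1.66. Esm1 was the lowest member in every group. The median coefficient of variation of a member among the 3 libraries of a group ran from 7.73% in non-infarcted LV with liraglutide to 14.8% in infarcted LV with liraglutide.

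The genes behind the largest differences lie apart in the mouse genome, except for the selectins, which are neighbours on chromosome 1 on the plus strand in GENCODE vM21 (GRCm38, the mm10 build): Sele at 164048234 to 164057677 and Selp at 164115264 to 164150026. Icam1 lies on chromosome 9 at 21015985 to 21028817, Vcam1 on chromosome 3 at 116109949 to 116129688 and Kdr on chromosome 5 at 75932827 to 75978458. Plvap lies on chromosome 8 at 71497765 to 71511752 and Cldn5 on chromosome 16 at 18776847 to 18778262. All 34 members are annotated as protein-coding genes.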

How the data were processed

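Polyadenylated RNA of 18 libraries was sequenced after a stranded TruSeq preparation, per the labels' protocols. The authors deposited whole-number counts for each gene symbol; STAR 2.7.9a, DESeq2 (version not given) and mm10 are named in the submitters' processing notes, while counter, strandedness and gene annotation were not given in the sources used here, so reads of overlapping genes may be shared. Libraries were compared in R 4.3.3 with edgeR 4.0.16, on the 6 libraries of each comparison: filterByExpr by group, TMM scaling, robust quasi-likelihood tests, with p adjusted by Benjamini-Hochberg over the whole tested table at 0.05. Interactions used all 18 libraries. SE was the size of the log2 change divided by the root of F. Ratios were tested by exact permutation. The code was tested on simulated data. Alternatives were RLE size factors, library totals alone, DESeq2 1.42.0, no filter, CPM of at least 1 in 3 libraries, a fit over all 18 libraries, a replicate block and leaving out libraries.

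Every member was accounted for. Values of each library were given for Sele, Selp, Vcam1, Icam1, Pecam1 and Cdh5, for up to 6 called members with the largest change per direction in the regional comparisons, and for the members with the smallest p under liraglutide; other lists name up to 4 genes with the smallest p. Tek, Fabp4, Vwf, Esm1, Nos3 and genes in the closing section were also described after their values were seen. The members and lists were chosen with earlier results of these data known. Other endothelial lists were counted without the 34 members.

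The labels call the libraries biological replicates but tie none to an animal, so p-values measure the spread between these samples. Column names repeat the same series of numbers in each region. Same-numbered libraries deviated together for infarcted against non-infarcted LV (r = 0.152 to 0.171 under PBS, 0.131 to 0.173 with liraglutide) and for atria against non-infarcted LV under PBS (0.108 to 0.197). The numbers were taken to pair those. Between treatments, which share no animal, single values reached 0.172 (number 3, non-infarcted LV) and 0.148 (number 1, atria), so r alone does not establish pairing. The main fits used no pairing. No 2 libraries of a group agreed within sampling noise. The count of 3 given above as CPM only marks how low a value is, and it entered no test.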

Additional observations from a re-analysis of the deposited data

How the results depend on the processing

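Under the alternatives, 280 counts of called members stayed within 1.5 times the reported count and 10 did not. The counts under liraglutide against PBS were 1 lower in atria by DESeq2, in the fit over all 18 libraries and without both libraries that held other tissue, and 0 to 1 when single libraries were left out. They were 1 lower without the filter in infarcted LV and in non-infarcted LV. Members higher in atria than in infarcted LV with liraglutide were 4 under library totals alone and 4 to 7 with single libraries left out, and the interaction of atria against infarcted LV had 0 to 1. With Pecam1 and Cdh5 alone as the endothelial sum, the log2 ratio differences of atria against non-infarcted LV under PBS were 2.97 for Sele (3.21 with 6 genes), 2.49 for Vcam1 (2.73) and 1.93 for Icam1 (2.17), and 1.85 for Icam1 with liraglutide (2.06). No result reversed. The cause of these shifts was not tested.

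Counts over all genes depended on the tool for treatment. In atria edgeR called 1 gene, DESeq2 118, the fit over all 18 libraries 94, the fit without a filter 3, and leaving out liraglutide replicate 3 gave 105. In infarcted LV it was 0 against 1 by DESeq2 and 35 without a filter, and in non-infarcted LV 0 against 2 and 5. DESeq2 called 58 and 30 genes in the interactions of atria with non-infarcted and infarcted LV. In the comparisons whose numbers did not pair (same-number correlations of -0.373 to 0.172), the replicate block called 0 members for liraglutide against PBS in all 3 regions, moved no count of members or of regional calls by over 1.5 times, and took Esam from the calls of atria against non-infarcted LV with liraglutide (adjusted p = 0.0515). In the comparisons taken as paired it changed no call but those of Vwf and Tek. Depth limits Esm1 most, with 0 to 10 counts per library outside the infarct.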

Other observations

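Flow-responsive endothelial genes outside the 34 members were the list with the most small p-values for liraglutide against PBS in atria, though none was called by edgeR. Of 7 genes 5 had an unadjusted p under 0.05, against 6.87% of all genes, and the list was singled out after its values were seen. Thbd was at 146 ± 18.8 CPM with liraglutide and 251 ± 65.1 CPM with PBS (SD, n = 3; log2 -0.68, edgeR adjusted p = 0.492). Klf4 was at 48.3 ± 6.6 against 77.8 ± 16.7 CPM and Klf2 at 86.2 ± 11.7 against 125 ± 13.5 CPM. Edn1 differed the other way, at 10.8 ± 0.522 against 6.81 ± 1.36 CPM (log2 0.79, edgeR adjusted p = 0.421).

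Genes of tip cells and sprouting vessels, all of which rose in the infarct under PBS, had negative estimates for liraglutide against PBS in 14 of 14 cases in infarcted LV and in 13 of 14 in non-infarcted LV, with medians of -0.13 and -0.18. None was called, and this too was noticed after the values were seen. Medians over all genes were 0.002 and -0.002, and those of the members were -0.07 and -0.05, in the same order. The share of all genes with a negative estimate was not counted. Genes read in the same libraries can vary together, so these counts do not show a pattern particular to this list. Several infarcted LV estimates were smaller than their standard errors, such as Angpt2 (-0.04 ± 0.14). In infarcted LV the smallest p was that of Nid2, a basement membrane protein (-0.45 ± 0.10, edgeR adjusted p = 0.403), followed by Apln (-0.39 ± 0.12, edgeR adjusted p = 0.727). In atria 9 of the 14 estimates were positive, with a median of 0.03.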
